A study of Rattus norvegicus with 9 samples.

Results

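Annexins, S100 proteins and galectins were followed in cultured rat ureteric buds by taking every probe set whose gene symbol in the platform table starts with Anxa, S100 or Lgals and a family letter or number. The rule found 38 of the 15866 probe sets left after array controls were set aside. They were 13 annexin probe sets for 9 genes, 15 S100 probe sets for 14 genes, 9 galectin probe sets for 7 genes, and 1 probe set of Lgals3bp, which encodes a galectin-3 binding protein and matched by its name only. They stand for 31 of the 10411 genes with a probe set of 1 symbol, and 1 galectin probe set was assigned to both Lgals9 and Lgals5 and was not counted for either gene. S100a6 and Lgals3, named as markers of the group, were both measured. The members were chosen by name, with earlier results of these data known, so their counts are not a choice blind to the response.

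Collecting ducts of the kidney arise from the ureteric bud, an epithelial tube that branches into the mesenchyme. Buds of Sprague-Dawley rat embryos at embryonic day 13 were stripped of mesenchyme and kept for 4 days in a matrix of equal parts Matrigel (growth factor reduced) and type 1 collagen. All media held FGF1 at 250 ng/ml and GDNF at 125 ng/ml. HRG buds also received human recombinant heregulin alpha, an ErbB receptor ligand, at 500 ng/ml. PTN buds received about 3 microgram/ml of pleiotrophin purified from the conditioned medium, and BSN buds received that medium whole, taken from cultures of a cell line of metanephric mesenchyme. Each array held the RNA of 3 pooled buds, amplified by 2 rounds of in vitro transcription, and there were 3 arrays per medium. The series title counts PTN with the branching cultures, the sample descriptions call PTN non-branching, and so groups are named by medium here. No group received FGF1 and GDNF alone, so it cannot be said which medium of a pair moved away from that base. In whole buds a smaller share of expressing cells and less RNA per cell cannot be told apart either.

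Annexins are calcium-dependent proteins that bind phospholipid membranes and take part in membrane traffic and repair. S100 proteins are small EF-hand calcium sensors, and several work through annexins: S100a10 joins Anxa2 in a heterotetramer, S100a11 binds Anxa1, and S100a6 binds Anxa11. Galectins bind beta-galactosides on cell surface and matrix glycoproteins, and galectin 3 is known in the ureteric bud and collecting duct of the developing kidney.

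Signals are linear GCOS values, and fold changes are on the scale of log2 of the signal plus 16. Testing took the probe sets that exceeded the 40th percentile of signals in 3 or more of the 9 arrays, namely 10106 probe sets and 26 of the 38 members, from 21 genes. Lgals4 passed this filter through its HRG arrays only. Adjusted p is limma's moderated test with the Benjamini-Hochberg method over all 10106 probe sets, and a change passed at an adjusted p under 0.05. Arrays of one medium correlated at 0.946 to 0.979 over the tested probe sets, and arrays of different media at 0.882 to 0.937. Over all probe sets 699 were higher and 895 lower in HRG than in BSN, 1423 higher and 1180 lower in HRG than in PTN, and 925 higher and 1351 lower in PTN than in BSN. Centring each array on its median turned these splits to 855 and 623, 943 and 1452, and 1598 and 645, and moved the median log2 change of all tested probe sets to 0.06, -0.03 and 0.10, against -0.04, 0.08 and -0.11 as deposited.

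The comparison of HRG with BSN asks how buds in heregulin differ from buds in whole conditioned medium. Of the 26 tested members 11 rose in HRG, from 10 genes, and 15 did not pass. Over all tested probe sets 6.92% rose and 8.86% fell. None of the members fell by limma, and none was lower at an unadjusted p under 0.05 either. By family 6 of 12 annexin, 3 of 9 S100 and 2 of 5 galectin probe sets rose. The 11 and the galectin count include Lgals4, which passed the filter through its HRG arrays only. Among those with a fold, the dimmer Anxa4 probe set, S100a6 and Lgals3 had the largest. The members' median log2 change was 0.38, against -0.04 for all tested probe sets, and 0.48 against 0.06 after median centring.

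HRG against PTN sets the single factors side by side. Of the 26 tested members 19 rose in HRG, from 16 genes, and 7 did not pass, where 14.1% of all tested probe sets rose and 11.7% fell. Again none fell, and none was lower at an unadjusted p under 0.05. By family 9 of 12 annexin, 7 of 9 S100 and 3 of 5 galectin probe sets rose. Lgals4, brought past the filter by its HRG arrays only, is again in the 19 and in the galectin count. On 21 member probe sets, Lgals4 among them, the 3 HRG arrays were all above the 3 PTN arrays, against 22.9% of all tested probe sets. The median log2 change was 0.98 for the members and 0.08 for all tested probe sets, or 0.87 and -0.03 after median centring.

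PTN against BSN asks how far purified pleiotrophin differed from the medium it was purified from. Of the 26 tested members 12 fell in PTN, from 11 genes, and 14 did not pass. Among all tested probe sets 13.4% fell and 9.15% rose, 22.5% together. By family 4 of 12 annexin, 6 of 9 S100 and 2 of 5 galectin probe sets fell. No member rose by limma, and none was higher at an unadjusted p under 0.05. The median log2 change was -0.57 for the members and -0.11 for all tested probe sets, or -0.36 and 0.10 after median centring. These 3 comparisons share arrays, so their values are given side by side and not as independent results.

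**Figure D1:**
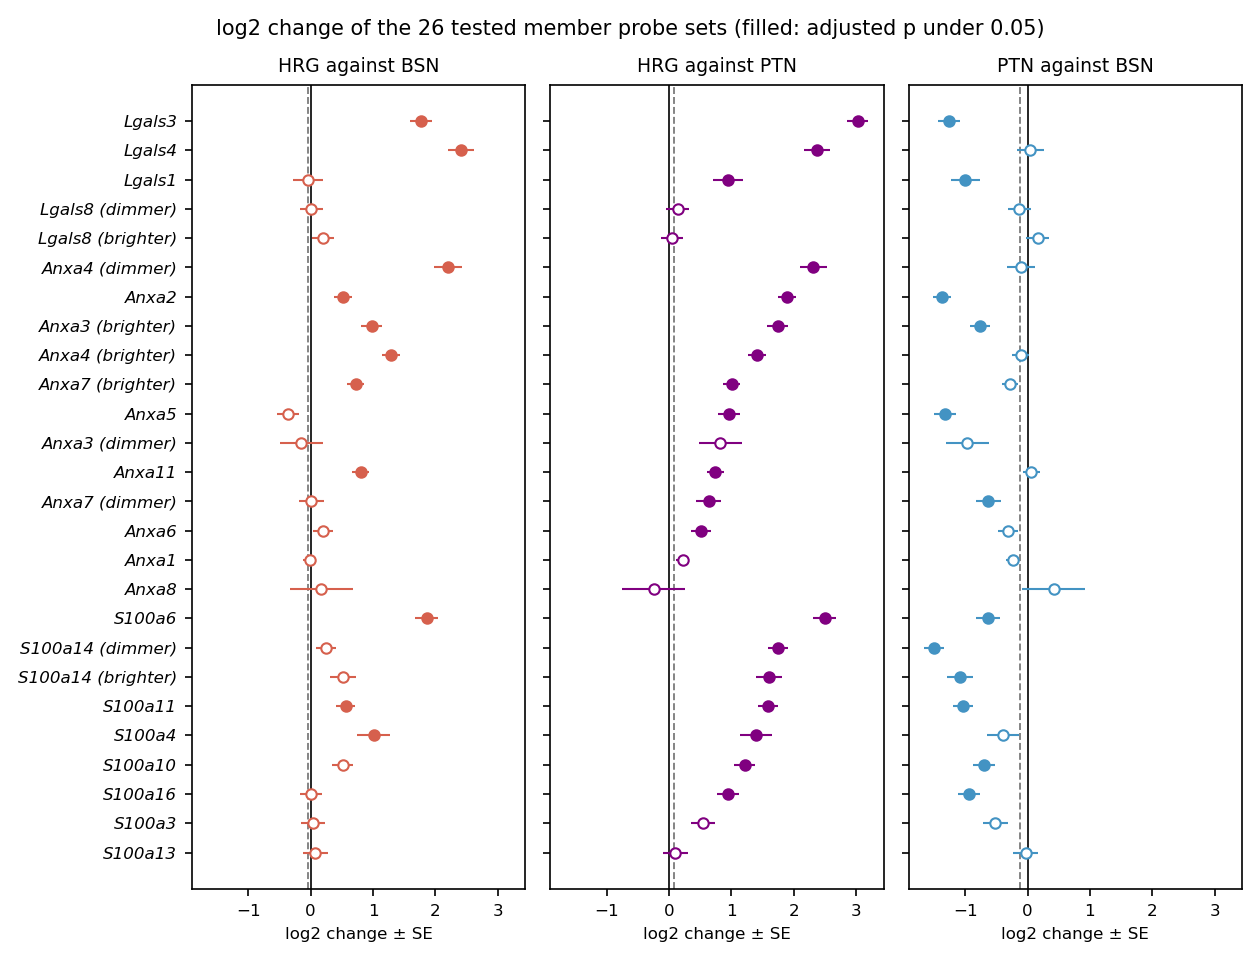
The log2 change with its SE is plotted for each of the 26 tested member probe sets, in rows grouped by family, for the 3 comparisons (3 arrays per medium). Filled points passed at an adjusted p under 0.05 and the dashed line is the median of all tested probe sets. The Lgals4 values rest on dim PTN and BSN groups. All filled points lie right of 0 for HRG against BSN (11) and HRG against PTN (19), and left of 0 for PTN against BSN (12).

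Anxa2, the annexin that pairs with S100a10 and binds plasminogen activators at the cell surface, had signals of 38320, 29238 and 31755 in HRG, 7688, 8856 and 10336 in PTN, and 25480, 21050 and 22729 in BSN. All PTN arrays lay below all BSN and HRG arrays. It was 3.69-fold higher in HRG than in PTN (adjusted p = 2.21e-06) and fell 2.58-fold in PTN relative to BSN (adjusted p = 7.8e-05). The rise in HRG over BSN was smaller, 1.43-fold with an adjusted p of 0.0299. That call was lost without BSN replicate 2 or 3 or HRG replicate 1 or 3 (0.0717 to 0.118), and with quantile normalization, no filter or no intensity trend (0.0508 to 0.0561).

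S100a10, its partner, had signals of 6881, 4482 and 4700 in HRG, 2585, 2016 and 2207 in PTN, and 3915, 3542 and 3572 in BSN. The order of the media was that of Anxa2, and no pair of groups overlapped. S100a10 rose 2.32-fold in HRG over PTN (adjusted p = 0.000223) and fell 1.62-fold in PTN relative to BSN (adjusted p = 0.0117). HRG against BSN did not pass, with a log2 change of 0.51 ± 0.171 (SE) and an adjusted p of 0.0603, but it passed with quantile normalization (0.0456), median centring (0.0198), the 60th percentile filter (0.0482), only the groups compared (0.0412), the replicate block (0.0278) or without PTN replicate 1 (0.0321).

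Anxa4, an annexin of secretory and duct epithelia, was the annexin with the largest rise in HRG over BSN on the probe sets tested. Its brighter probe set gave 46396, 41577 and 47680 in HRG, 13811, 17222 and 20763 in PTN, and 18255, 18197 and 18775 in BSN. The HRG arrays stood apart and the PTN and BSN arrays overlapped. The rise was 2.45-fold over BSN (adjusted p = 5.11e-05) and 2.65-fold over PTN (adjusted p = 1.62e-05), and PTN against BSN gave a log2 change of -0.11 ± 0.141 (SE, adjusted p = 0.597). A dimmer probe set, at 3625, 5369 and 4992 in HRG, 714, 1047 and 1010 in PTN, and 930, 1327 and 771 in BSN, had the same order of media. Its folds were larger, 4.61 over BSN (adjusted p = 2.78e-05) and 4.98 over PTN (adjusted p = 1.2e-05).

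Anxa11, an annexin that binds RNA granules and lysosomes, showed the same shape with smaller steps. Its signals were 15369, 13592 and 14615 in HRG, 8661, 8522 and 8836 in PTN, and 7096, 8066 and 9980 in BSN. It rose 1.75-fold over BSN (adjusted p = 0.00147) and 1.67-fold over PTN (adjusted p = 0.00179), while PTN and BSN overlapped. 

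Anxa7, a membrane fusion annexin, had signals of 8928, 10320 and 10910 in HRG, 5100, 5368 and 4523 in PTN, and 6443, 5587 and 6202 in BSN on its brighter probe set. HRG was the high group there, 1.65-fold over BSN (adjusted p = 0.00239) and 2.01-fold over PTN (adjusted p = 0.000139). Its dimmer probe set had another order of media, at 1351, 971 and 1240 in HRG, 612, 762 and 902 in PTN, and 1329, 993 and 1208 in BSN. There PTN was the group that stood low, 1.55-fold below BSN (adjusted p = 0.0399) and with HRG 1.56-fold above it (adjusted p = 0.0333). Both of these calls were lost after quantile normalization (0.185 and 0.0861) and median centring (0.172 and 0.085), with no filter (0.0739 and 0.0654) and with only the groups compared (0.0637 and 0.0564). Leaving out single arrays ended the PTN against BSN call for BSN replicate 1 or 3, HRG replicate 3 and PTN replicate 1 or 2 (0.0563 to 0.138), and the HRG against PTN call for HRG replicate 1 or 3 and PTN replicate 1 or 2 (0.0661 to 0.127).

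Anxa3 had 3 probe sets that did not agree. The brightest gave 4001, 4247 and 3868 in HRG, 1113, 1081 and 1423 in PTN, and 1685, 2458 and 2053 in BSN, so that the 3 media did not overlap. It rose 1.97-fold over BSN (adjusted p = 0.00126) and 3.34-fold over PTN (adjusted p = 9.76e-06), and fell 1.7-fold in PTN relative to BSN (adjusted p = 0.00599). A second probe set ran from 409 to 1165 in HRG, from 298 to 566 in PTN and from 795 to 854 in BSN and passed in no comparison. Its PTN mean was below the mean 40th percentile of those arrays, 632. Without HRG replicate 3, its lowest HRG array, it passed for HRG against PTN (0.0125). PTN against BSN (adjusted p = 0.0609) passed as lower without HRG replicate 1 (0.0465), HRG replicate 3 (0.0231) or PTN replicate 2 (0.0454), with only the groups compared (0.0352) and with the replicate block (0.0333). The remaining probe set ran from 14.7 to 35.1 over all arrays and was not tested.

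Anxa5, the phosphatidylserine-binding annexin, differed in its order. Its signals were 15892, 14977 and 17472 in HRG, 5830, 9783 and 9814 in PTN, and 20925, 20318 and 20652 in BSN. BSN was the highest group and PTN the lowest, with no overlap between any of them. It fell 2.5-fold in PTN relative to BSN (adjusted p = 0.000374) and was 1.95-fold higher in HRG than in PTN (adjusted p = 0.00174). For HRG against BSN the log2 change of -0.36 ± 0.178 (SE) did not pass (adjusted p = 0.213), but it did without PTN replicate 1 (0.0205), the lowest array, and with only the groups compared (0.0294).

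Anxa1, the annexin induced by glucocorticoids, was bright and nearly level. Its signals were 48296, 43191 and 50622 in HRG, 39244, 40696 and 42169 in PTN, and 47909, 44934 and 50825 in BSN. The PTN arrays were the 3 lowest, yet neither HRG against PTN (1.16-fold, adjusted p = 0.148) nor PTN against BSN (log2 change -0.23 ± 0.104 SE, adjusted p = 0.125) passed. Both passed after quantile normalization (0.0304 and 0.0156). 

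Anxa6, a large annexin of endosomes, had signals of 5641, 5828 and 6241 in HRG, 4993, 4185 and 3378 in PTN, and 4641, 4861 and 6037 in BSN. Every HRG array was above every PTN array, and BSN overlapped HRG. Anxa6 rose 1.43-fold in HRG over PTN (adjusted p = 0.0338). That call was lost without any 1 of the HRG arrays or without PTN replicate 2 or 3 (0.0647 to 0.134), and after quantile normalization (0.052), median centring (0.072) or fitting only the groups compared (0.0509). Without PTN replicate 1 Anxa6 passed as lower in PTN than in BSN (0.0371). Anxa8 passed in no comparison, with HRG arrays at 291, 1612 and 1565. Without the first of these, HRG replicate 1, Anxa8 passed as higher in HRG than in BSN (adjusted p = 0.0386).

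S100a6, a regulator of cytoskeleton and proliferation in epithelia also called calcyclin, had the largest S100 rise. Its signals were 8867, 7659 and 6504 in HRG, 1285, 1355 and 1380 in PTN, and 2161, 1552 and 2701 in BSN. Every HRG array was above every array of the other media. S100a6 rose 3.63-fold over BSN (adjusted p = 2.78e-05), a smaller fold than the 5.63 over PTN. PTN against BSN passed as a 1.55-fold fall (adjusted p = 0.03), and this call was lost without BSN replicate 1 or 3 or PTN replicate 2 or 3 (0.0622 to 0.136). It was also lost after quantile normalization (0.107), median centring (0.123), with no filter (0.0519) and with only these groups in the fit (0.0535).

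S100a4, a motility-associated S100 protein known from stromal and migrating cells, had signals of 2142, 1952 and 1712 in HRG, 648, 801 and 724 in PTN, and 1499, 611 and 932 in BSN. HRG was the high group, and the spread was widest in BSN. It rose 2.01-fold over BSN (adjusted p = 0.0183) and 2.63-fold over PTN (adjusted p = 0.00176). The call against BSN was lost without BSN replicate 2 or 3 or HRG replicate 1 or 2 (0.0581 to 0.0691), and without BSN replicate 2 PTN against BSN passed as lower (0.0499).

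S100a11, the partner of Anxa1, gave 8212, 7686 and 7100 in HRG, 2810, 2499 and 2323 in PTN, and 5104, 4241 and 6449 in BSN. The 3 media did not overlap. It was 3.01-fold higher in HRG than in PTN (adjusted p = 1.67e-05) and fell 2.04-fold in PTN relative to BSN (adjusted p = 0.000948). The 1.47-fold rise of HRG over BSN (adjusted p = 0.0315) was lost without BSN replicate 1 or 2 or any 1 of the HRG arrays (0.0597 to 0.136).

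S100a14 and S100a16, both S100 proteins of epithelial cells, were low in PTN, with HRG and BSN closer together. S100a14 on its dimmer probe set had signals of 5560, 6215 and 5178 in HRG, 1813, 1835 and 1389 in PTN, and 4309, 4421 and 5615 in BSN. The PTN arrays stood apart below arrays of HRG and BSN that overlapped. It fell 2.83-fold in PTN relative to BSN (adjusted p = 7.04e-05) and was 3.36-fold higher in HRG than in PTN (adjusted p = 6.8e-06). HRG against BSN gave 0.25 ± 0.158 (log2 change with SE, adjusted p = 0.342). The brighter S100a14 probe set gave 7530, 7706 and 6027 in HRG, 1715, 3256 and 2230 in PTN, and 4162, 5622 and 5123 in BSN. PTN was again the low group, with a 2.12-fold fall relative to BSN (adjusted p = 0.00353), and HRG was 3.03-fold above it (adjusted p = 0.000138). On it HRG against BSN gave 0.51 ± 0.211 (log2 change with SE, adjusted p = 0.129), which passed without PTN replicate 1 (0.0437) and with only HRG and BSN in the fit (0.0278).

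S100a16 had signals of 9964, 9616 and 10615 in HRG, 3861, 5538 and 6597 in PTN, and 9766, 9009 and 11308 in BSN. It fell 1.91-fold in PTN relative to BSN (adjusted p = 0.00304) and was 1.93-fold higher in HRG than in PTN (adjusted p = 0.00189). HRG and BSN overlapped, at a log2 change of 0.01 ± 0.178 (SE, adjusted p = 0.981). S100a3, a protein best known from hair, had the same order at a lower signal and did not pass, with 1461 ± 291 in HRG, 991 ± 177 in PTN and 1418 ± 223 in BSN (SD, n = 3). HRG against PTN reached an adjusted p of 0.0531 for it, or 0.0347 with the replicate number as a block, 0.0484 without HRG replicate 2 and 0.0179 without PTN replicate 1. PTN against BSN gave 0.0736, or 0.0232 without that array. S100a13, which is released with FGF1 under stress, stayed between 605 and 950 on all 9 arrays and passed in no comparison.

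Lgals3, encoding galectin 3, had the largest fold in HRG over PTN among the tested members for which a fold is given, which leaves out Lgals4. Its signals were 12424, 10759 and 11876 in HRG, 1039, 1682 and 1643 in PTN, and 3551, 3362 and 3357 in BSN. All 3 media were apart, with HRG highest and PTN lowest. Lgals3 rose 8.13-fold over PTN (adjusted p = 1.71e-07) and 3.4-fold over BSN (adjusted p = 2.17e-05), and it fell 2.39-fold in PTN relative to BSN (adjusted p = 0.000429).

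Lgals4, encoding galectin 4, a galectin of gut epithelium that organises apical traffic, had signals of 2680, 2914 and 1987 in HRG, 528, 396 and 496 in PTN, and 421, 420 and 531 in BSN. Both lower groups averaged below the mean 40th percentile of their arrays, which was 632 in PTN and 750 in BSN, so no fold is given. HRG was higher than BSN (adjusted p = 7.91e-06) and higher than PTN (adjusted p = 6.36e-06). Because the HRG arrays alone brought Lgals4 past the filter, its difference was in part built into its being tested.

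Lgals1, encoding galectin 1, followed the order of S100a16, with 2258, 1713 and 998 in HRG, 860, 846 and 712 in PTN, and 1583, 1539 and 1734 in BSN. It fell 1.99-fold in PTN relative to BSN (adjusted p = 0.0108) and was 1.93-fold higher in HRG than in PTN (adjusted p = 0.0109), a call lost without HRG replicate 1 (0.0536). HRG against BSN gave a log2 change of -0.04 ± 0.24 (SE, adjusted p = 0.938). Lgals8, a galectin that marks damaged endosomes, passed in no comparison on either of its probe sets. Its brighter probe set averaged 3965 ± 268 in HRG, 3921 ± 1009 in PTN and 3454 ± 485 in BSN (SD, n = 3).

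**Figure D2:**
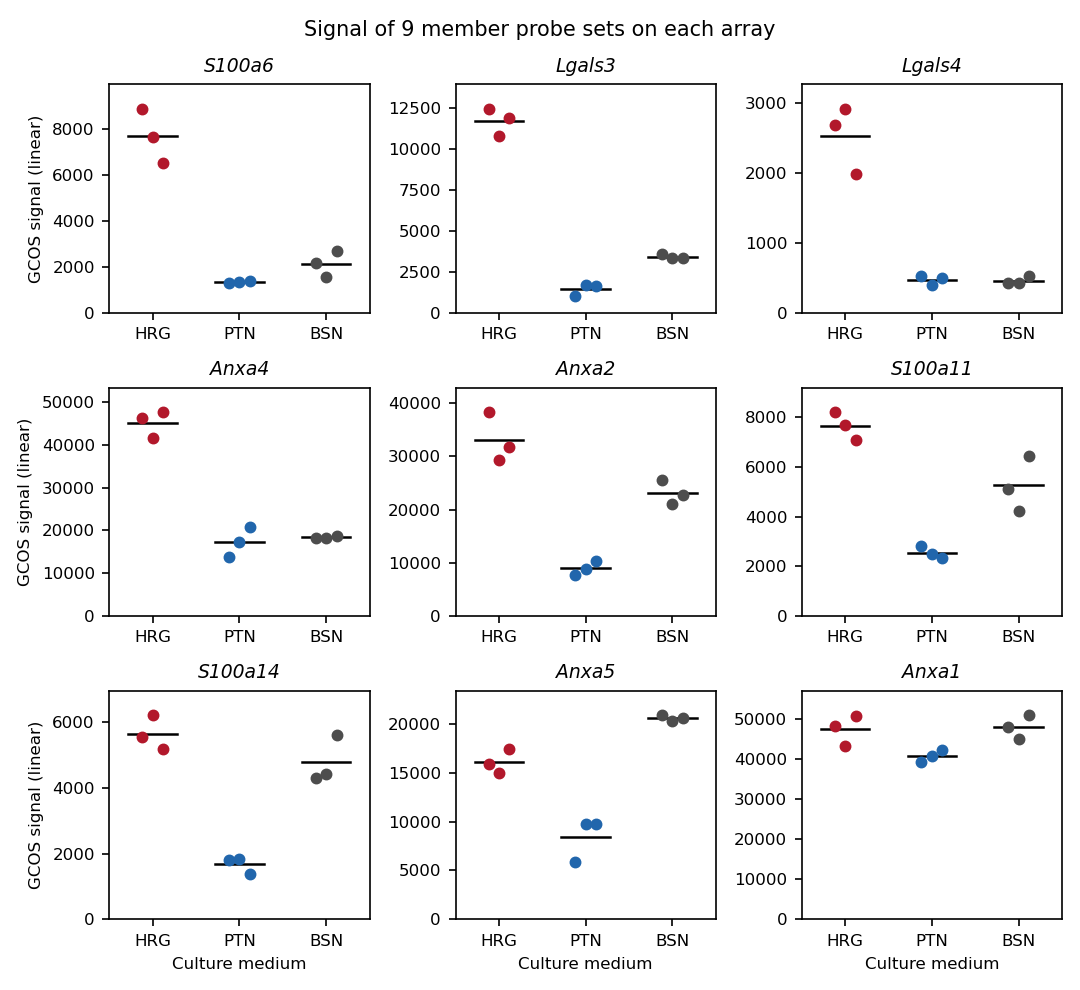
Linear GCOS signal of 9 member probe sets is plotted by culture medium, with 1 point per array (3 per medium), a line at the mean, and a y axis from 0 in each panel. For Anxa4, the brighter probe set, and for S100a14, the dimmer one, are drawn. For S100a6, Lgals3, Lgals4, Anxa4, Anxa2 and S100a11 all HRG arrays are above those of the other media. For S100a6, Lgals3, Anxa2, S100a11, S100a14, Anxa5 and Anxa1 all PTN arrays are below those of the other media. Anxa1 is nearly level between 39244 and 50825.

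The 12 members that were not tested were low. S100a8 and S100a9, the calprotectin subunits of neutrophils and monocytes, ran from 3.2 to 26.7 and from 16.6 to 181 over all arrays. S100a9 was at 17.9, 16.6 and 57.1 in HRG, 20.2, 25 and 122 in PTN, and 181, 139 and 170 in BSN. With no filter it passed as lower in HRG than in BSN (adjusted p = 0.0271), at signals far under the 40th percentile. S100g, encoding calbindin-D9k, ran from 51.7 to 281, S100a1 from 129 to 668, S100b from 404 to 763 and S100a7l2 from 37.2 to 207. Lgals2 ran from 49.5 to 106, Lgals7 from 41.3 to 116, Lgals3bp from 298 to 608, the single-gene Lgals9 probe set from 266 to 685, and the Lgals9 and Lgals5 probe set from 64.3 to 664.

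Most S100 genes lie together on rat chromosome 2, and neighbouring genes there differed in their calls, although the differences between neighbours were not tested. In the RefSeq order S100a1, S100a13, S100a14, S100a16, S100a3 and S100a4 follow each other with no other protein-coding gene between them, S100a6 comes after 1 further gene, and S100a11 and S100a10 are adjacent to each other 56 protein-coding genes past S100a7l2. S100a4 and S100a6 rose in HRG over BSN, while S100a14, S100a16, S100a3 and S100a13 did not pass. In PTN against BSN, S100a14, S100a16 and S100a6 fell and S100a13 had a log2 change of -0.03 ± 0.203 (SE). The distant pair, S100a11 and S100a10, both fell in PTN.

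**Figure D3:**
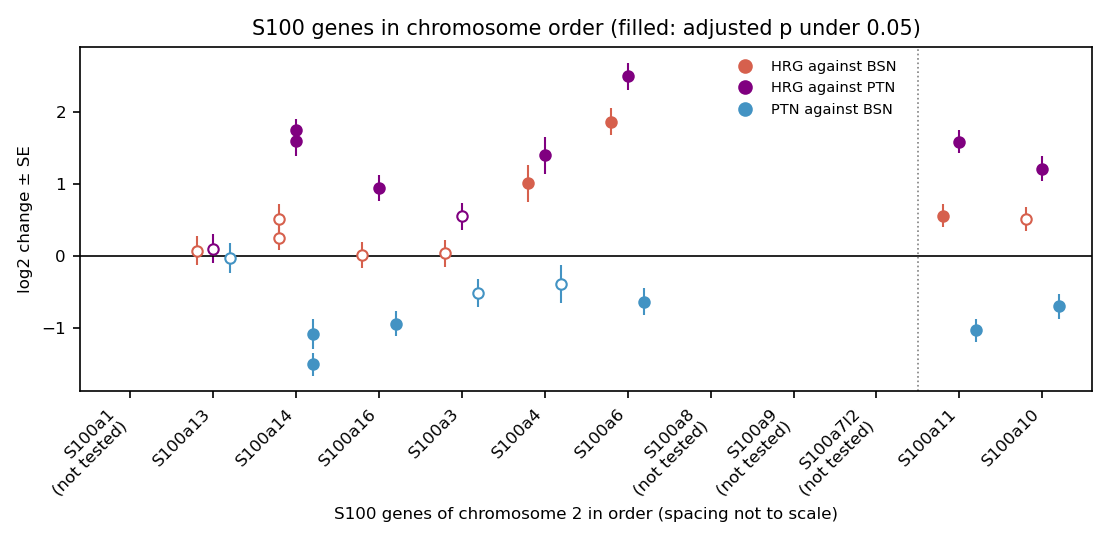
The log2 change with its SE is plotted for the S100 genes of chromosome 2 in their RefSeq order, with colours for the 3 comparisons (3 arrays per medium), filled points for an adjusted p under 0.05, and both S100a14 probe sets shown. Spacing is not to scale and the dotted line marks the gap of 56 genes. HRG against PTN reaches 2.49 at S100a6 and is 0.10 at S100a13, 5 places away.

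Promoter sequences of 5 members are shown because these genes carry the contrasts above: S100a6, Anxa4 and Lgals4 had rises in HRG, Anxa2 fell in PTN, and S100a14, of the same S100 cluster as S100a6, did not pass for HRG against BSN. Each is the 250 bases before the RefSeq start in GRCr8, 5′ to 3′ on the gene's strand. They lie at chr2:178398287-178398536 (S100a6, plus strand), chr2:178305726-178305975 (S100a14, plus strand), chr8:78986002-78986251 (Anxa2, plus strand), chr4:120798514-120798763 (Anxa4, minus strand) and chr1:93252035-93252284 (Lgals4, plus strand). Capitals mark TATAA, searched on the gene's strand, and the AP-1 element TGANTCA, searched on both strands.
S100a6: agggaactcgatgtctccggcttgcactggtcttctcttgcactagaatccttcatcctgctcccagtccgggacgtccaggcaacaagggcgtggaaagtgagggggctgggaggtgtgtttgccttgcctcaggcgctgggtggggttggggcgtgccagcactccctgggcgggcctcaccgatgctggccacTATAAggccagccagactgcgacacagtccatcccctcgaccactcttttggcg
S100a14: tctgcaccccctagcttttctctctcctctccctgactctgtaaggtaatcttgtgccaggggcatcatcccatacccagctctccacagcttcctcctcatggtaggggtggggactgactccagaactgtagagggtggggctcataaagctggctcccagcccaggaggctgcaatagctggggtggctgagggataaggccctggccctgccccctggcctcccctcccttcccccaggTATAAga
Anxa2: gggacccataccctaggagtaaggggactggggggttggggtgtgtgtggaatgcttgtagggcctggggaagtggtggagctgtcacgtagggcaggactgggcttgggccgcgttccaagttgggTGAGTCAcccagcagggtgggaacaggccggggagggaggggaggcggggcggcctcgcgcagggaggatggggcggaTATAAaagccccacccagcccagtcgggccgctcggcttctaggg
Anxa4: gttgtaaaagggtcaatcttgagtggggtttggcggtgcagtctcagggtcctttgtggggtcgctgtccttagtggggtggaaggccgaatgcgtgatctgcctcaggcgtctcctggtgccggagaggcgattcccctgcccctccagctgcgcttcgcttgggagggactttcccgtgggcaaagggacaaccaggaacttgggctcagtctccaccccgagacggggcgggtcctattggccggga
Lgals4: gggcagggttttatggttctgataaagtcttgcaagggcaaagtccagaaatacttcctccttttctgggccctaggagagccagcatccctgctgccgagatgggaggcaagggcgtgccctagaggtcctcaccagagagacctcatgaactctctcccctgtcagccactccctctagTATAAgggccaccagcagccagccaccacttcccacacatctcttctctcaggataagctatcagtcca

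Of the 31 member genes 24 had a promoter in the RefSeq table, and Anxa6, Lgals1, Lgals3, S100a1, S100a10, S100a8 and S100g had none there. TATAA was found in 11 of these 24, against 17.1% of 27457 rat promoters of the same length, and its first base lay 54 bases before the start in S100a6 and 45 in Anxa2. In S100a14 it lay only 7 bases before the start. TGANTCA was found in 2 of the 24, Anxa2 and Lgals9, against 6.36% of all promoters. The GC box GGGCGG, searched on both strands and not capitalised, was found in 10 of the 24, against 32.4%, and among the promoters printed it was in S100a6, Anxa4 and Anxa2. No match of 1 motif overlapped a match of a different motif in the 24 promoters, while the 2 GC boxes of S100a11 shared a base. Such matches describe letters and were not tested for binding.

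Calcium-binding EF-hand genes outside the S100 family were counted beside it. Of 17 listed genes 10 were tested, and none of them rose in HRG over PTN by limma (1 was higher at an unadjusted p under 0.05) while 6 fell, where 14.1% of all tested probe sets rose and 11.7% fell. One of the 6, Calb2, encoding calretinin, was lost in 9 of 17 alternatives (adjusted p 0.0444, up to 0.167), 7 of which left out a single array: BSN replicate 1 or 3, any 1 of the HRG arrays, or PTN replicate 1 or 2. Calm2, a calmodulin gene, was at 23366 ± 1942 in HRG and 44219 ± 2629 in PTN (SD, n = 3), 1.89-fold lower in HRG (adjusted p = 5.59e-05). Calu, encoding calumenin of the secretory pathway, was at 4457 ± 321 in HRG and 8389 ± 1019 in PTN (SD, n = 3), and Rcn1, a reticulocalbin of the endoplasmic reticulum, was 1.84-fold lower in HRG. The median log2 change of the 10 was -0.55, where that of all tested probe sets was 0.08. Against BSN 5 of the 10 fell in HRG (Calm2, Rcn1, Rcn2, Actn1 and Actn4) and none rose by limma or at an unadjusted p under 0.05. Of all tested probe sets 8.86% fell and 6.92% rose in that comparison. After median centring none of the 5 passed, and leaving out single HRG or BSN arrays ended each of these calls in turn (adjusted p up to 0.176 over the alternatives). In PTN against BSN 3 of the 10 rose, Calu (1.76-fold), Calm2 (1.43-fold) and Rcn1 (1.39-fold), and Actn4 fell 1.62-fold. There 9.15% of all tested probe sets rose and 13.4% fell. The Rcn1 call was lost without BSN replicate 3 and with no filter (up to 0.0588).

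**Figure D4:**
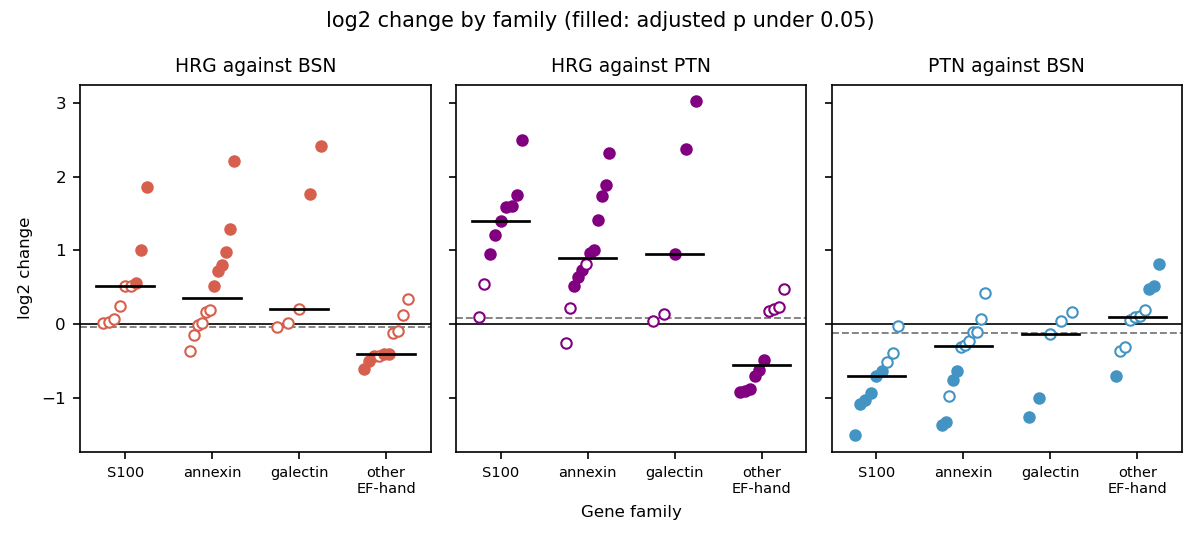
The log2 change of each tested S100, annexin and galectin probe set and of 10 other EF-hand genes is plotted for the 3 comparisons, with a black line at each family's median, a dashed line at the median of all tested probe sets, and filled points for an adjusted p under 0.05 (3 arrays per medium). In HRG against PTN the called S100 points lie above 0 and the 6 called points of the other EF-hand genes below 0. The galectin points and medians include Lgals4, which passed the filter through its HRG arrays only and rests on dim PTN and BSN groups.

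Partner genes of these proteins came from a second list. Of 11 tested partner and membrane repair genes none passed in HRG against BSN by limma, with 3 higher at an unadjusted p under 0.05, where 15.8% of all tested probe sets passed in either direction. After quantile normalization 1 passed as higher, and after median centring 2 did. Against PTN 2 of the 11 rose in HRG, near the 14.1% of all tested probe sets that rose. They were Myof, a ferlin of membrane repair, 2.05-fold (adjusted p = 0.000299), and Capns1, the small calpain subunit, 1.45-fold (adjusted p = 0.0216). The Capns1 call was lost after quantile normalization or median centring and without HRG replicate 2 or 3 (up to 0.108). Myof fell 1.55-fold in PTN relative to BSN (adjusted p = 0.0104, 0.112 after median centring).

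Among 12 tested galectin ligand and N-glycan branching genes 2 rose and 1 fell in HRG against BSN, where 15.8% of all tested probe sets passed. Mgat4a, a transferase that branches N-glycans, rose 2.41-fold (adjusted p = 0.000125) and Man2a1, a Golgi mannosidase ahead of branching, 2.35-fold (adjusted p = 0.000425). Fn1, encoding the galectin ligand fibronectin, fell 2.14-fold. Against PTN Lamp2, Mgat4a and Itga3 rose in HRG and Fn1 fell, 4 of 12 where 25.8% of all tested probe sets passed, with the Itga3 call lost in 7 of 18 alternatives (adjusted p up to 0.126). Lamp2, a lysosomal glycoprotein that galectin 3 can bind, was at 18293 in HRG and 10520 in PTN on average (adjusted p = 0.000195). In PTN it fell 1.72-fold relative to BSN (adjusted p = 0.000487). Itga3, an integrin chain, and Slc1a5, a glutamine transporter, also fell there, the Itga3 call lost after median centring (0.0501) and the Slc1a5 call after median centring and without BSN replicate 2 or 3 or PTN replicate 2 or 3 (up to 0.0882). In the other direction Man2a1 rose 2.11-fold. So 3 of the 12 fell and 1 rose in PTN against BSN, where 13.4% of all tested probe sets fell and 9.15% rose.

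Of the plasminogen genes linked to Anxa2 and S100a10, 3 were tested. Plat, tissue plasminogen activator, fell in PTN relative to BSN (log2 change -1.06, adjusted p = 0.0132, or 0.0585 without BSN replicate 1), as Anxa2 and S100a10 did. Serpine2, which inhibits plasminogen activators, averaged 614 in HRG, below the 691 that was the mean 40th percentile of those arrays, and 1771 in PTN (adjusted p = 0.000193), so no fold is given. The further calls of the list, Plat in HRG against PTN and Serpine2 in HRG or PTN against BSN, were each lost in some alternatives (adjusted p up to 0.134).

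Markers of cells that also carry these proteins were set beside the members. Macrophage and leukocyte markers summed to 6532 to 7610 in HRG, 5448 to 7251 in PTN and 7008 to 8216 in BSN over 12 genes. Of the 12, Ptprc, Cd14, Tyrobp, C1qb and Itgam were below the 40th percentile on all 9 arrays. Of the 6 tested, none passed in HRG against either medium by limma (1 lower than in BSN at an unadjusted p under 0.05, none against PTN). Cd74 fell in PTN relative to BSN, a call lost in 8 of 17 alternatives (adjusted p up to 0.143). Its PTN mean of 538 was below the mean 40th percentile of those arrays, 632. The HRG and PTN sums overlapped, as did those of HRG and BSN. Mesenchyme and stroma markers, 11 on the array, summed to 4657 to 5973 in HRG, 5695 to 6044 in PTN and 6324 to 6743 in BSN, with Pdgfra, Pdgfrb, Lum and Postn below the 40th percentile on all arrays. Endothelial markers, 5 on the array, summed to 1371 to 1713 in HRG, 1588 to 1973 in PTN and 1612 to 2016 in BSN. Kdr, the only one tested, fell in HRG against both media. Its means of 329 in HRG and 742 in BSN were below the mean 40th percentiles of those arrays, 691 and 750. Vim among the mesenchyme genes fell in HRG against BSN, a call lost in 9 of 17 alternatives (adjusted p up to 0.178).

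Sprr1a, a cornified envelope gene on the urothelial and squamous list, was the only one of that list to pass, and it was higher in HRG. Of the 13 listed genes 5 were on the array with a probe set of 1 symbol, none of them a uroplakin. Their sum was 17310 to 28696 in HRG, 1455 to 2540 in PTN and 1834 to 2549 in BSN. Most of the HRG sum was Sprr1a. Sprr1a averaged 21812 in HRG, 561 in PTN and 688 in BSN. The PTN and BSN means were below the mean 40th percentiles of those arrays, 632 and 750. Krt5, a basal keratin and the other gene tested, averaged 940 in HRG, 886 in PTN and 853 in BSN (adjusted p = 0.732 against PTN and 0.727 against BSN), while Krt14, Krt15 and Ivl were below the 40th percentile on all arrays. Epithelial identity markers, 11 genes on the array, summed to 158063 to 171995 in HRG, 125548 to 144685 in PTN and 157694 to 172429 in BSN. Within this list Krt19, a keratin of simple epithelia, rose 3.67-fold in HRG over BSN, while Ret, the GDNF receptor, fell 14.5-fold and Lhx1, a nephric duct transcription factor, fell 2.56-fold. Against PTN 5 of the 10 tested rose in HRG, foremost Krt19 (4.84-fold) and Krt7 (4.24-fold), and Ret (20.3-fold) and Lhx1 (2.47-fold) fell. Of all tested probe sets 14.1% rose and 11.7% fell in that comparison. The PTN sums were below those of the other media, in the same direction as Anxa2, S100a11, S100a14 and S100a16. Krt7, Krt18, Krt8 and Cdh16 fell in PTN relative to BSN and Ret rose, with the Krt8 and Ret calls lost in 12 and 10 of 18 alternatives (adjusted p up to 0.31 and 0.16). Cdh1, encoding E-cadherin, was at 12040 ± 3133 in PTN and 11468 ± 2900 in BSN (SD, n = 3, adjusted p = 0.873). The actin 3′/5′ signal ratio, a quality value taken here on amplified RNA, also moved with the medium. It was 18.6 to 29.6 in HRG, 15.3 to 18.1 in PTN and 28 to 37.8 in BSN. The exact permutation p of this ratio was 0.1 for each comparison with PTN, the smallest that 3 against 3 arrays can give, and 0.2 for HRG against BSN. The GAPDH 3′/5′ ratio had another order, at 2.01 to 3.49 in HRG, 2.97 to 6.85 in PTN and 3.75 to 5.83 in BSN. By exact permutation the GAPDH ratio gave p = 0.1 between HRG and BSN, 0.3 between HRG and PTN, and 0.8 between PTN and BSN. The part of these markers and of RNA quality in the members' differences was not tested.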

How the data were processed

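RNA of pooled buds was measured on 9 Affymetrix rat arrays, 3 per medium. The deposited values are signal intensity on a linear scale, made by the authors with GCOS per the submitters' processing notes; no version or setting of GCOS is given in the sources used here. Each array had a 2% trimmed mean of 2500.48 to 2500.58, so no scaling was added. Gene symbols came from the platform table, with 12789 probe sets of 1 symbol, 312 of several and 2822 with no symbol there, array controls included.

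Log2 of the signal plus 16 was fitted with limma 3.58.1 in R 4.3.3 (lmFit, contrasts.fit, trended eBayes) on the 9 arrays together, leaving 6 residual degrees of freedom and 12.7 after moderation. The number of arrays limits the precision, and p-values measure the spread between these samples, which the series design calls biological replicates. Where a group's mean was below the mean 40th percentile of its arrays, no fold is given. The fit was run on simulated data with known changes and independent noise between arrays. That run does not cover shared replicate numbers or shifts in scaling. Quality values and figures used Python 3.11.15 and matplotlib 3.10.9.

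Replicate numbers are shared between media. Deviations from the group means correlated between arrays of the same number at 0.118 to 0.332 for HRG and PTN, which was taken as pairing seen in the data, and at -0.0551 to 0.13 for HRG and BSN and -0.097 to -0.0112 for PTN and BSN, which was not. The fit without the block was kept.

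The members were chosen with earlier results of these data known, and so were the gene lists. Every member is accounted for; from the other lists, up to 2 highest and 2 lowest genes by moderated t among those that passed were named, or all that passed where they numbered 5 or fewer, and defining tissue genes. A list gene with several tested probe sets was represented by the brightest. Alternatives were quantile normalization, median centring, pseudocounts of 1 and 64, no filter, the 60th percentile, no intensity trend, only the groups compared, the replicate block and each array left out.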

Additional observations from a re-analysis of the deposited data

How the results depend on the processing

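In 18 alternatives, 9 of them leaving out 1 array, none of the 42 member calls changed sign. Of the 11 calls in HRG against BSN 8 held in every alternative, and of the 19 in HRG against PTN 16 did. Of the 12 in PTN against BSN 10 held. The others are named with their values in the report. The 8 and the 16 include Lgals4, which passed the filter through its HRG arrays only. Its calls were in part built into its being tested. The count of members that passed was 8 to 14 in HRG against BSN, 16 to 19 in HRG against PTN and 10 to 13 in PTN against BSN without 1 array, and 10 to 14, 17 to 20 and 10 to 13 in the other alternatives. Over all probe sets, leaving out 1 array gave 1053 to 2225, 1882 to 3109 and 1358 to 3222 calls in the same order, against 1594, 2603 and 2276 with all arrays, and the lowest counts came without HRG replicate 3 in HRG against BSN and without BSN replicate 3 in PTN against BSN. With the replicate block the counts of members were 12, 20 and 13 and those of all probe sets 1641, 2690 and 2362. The block added the S100a3 call in HRG against PTN, where arrays of the same number were taken as paired. In the comparisons not so taken, it added the S100a10 call in HRG against BSN (adjusted p = 0.0278). It also added the second Anxa3 probe set in PTN against BSN (0.0333), and it ended no member call. Signals near or below the 40th percentile limit what can be said of Lgals4 in PTN and BSN, of the second Anxa3 probe set in PTN and of the 12 members not tested.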
